A study of Mus musculus with 8 samples.

Results

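The 7 genes described here carry bile acids through the absorptive cell of the gut or report their presence through the nuclear receptor FXR: Fabp6, Slc10a2, Slc51a, Slc51b, Nr1h4, Fgf15 and Nr0b2. They were taken as a fixed list by name, and their rows were found by Ensembl identifier and then compared with exon coordinates. Of the 13176 genes with a value in the series, 6 are members, and the seventh, Fabp6, had no entry. RNA sequencing was performed on cultures of mouse intestinal organoids, which are epithelial structures grown in Matrigel from isolated crypts. The labels give the genotype of 4 samples as WT and of 4 as MG53-TG. By the series description and the study's text, the latter came from transgenic mice that overexpress MG53 (also called TRIM72) throughout the body, and the former from wild type littermates. That text also describes organoids from a cross of these mice with an Lgr5 reporter knock-in, and whether the sequenced cultures of both groups carried that allele is not settled by the sources used here. All samples were grown in IntestiCult medium. The promoter of the transgene, the age of the mice and any treatment of them are not given in the sources used here. The labels name neither the segment of gut nor the mouse behind each culture, so p-values measure the spread between these samples, which may be technical. The methods describe cultures from small intestine and from colon, and the crypt isolation given in the labels has the steps of the former.

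Bile acids are made in the liver, released into the gut after a meal and recovered mainly in the ileum, the last segment of the small intestine. There the apical transporter ASBT (Slc10a2) brings them into the enterocyte with sodium, the ileal bile acid binding protein (Fabp6) carries them across the cytosol, and the heterodimer OSTα/OSTβ (Slc51a and Slc51b) lets them out into portal blood. Inside the cell they activate FXR (Nr1h4), which pairs with RXR on DNA. Known FXR targets in the ileum are Fabp6, Slc51a, Slc51b, the repressor SHP (Nr0b2) and the hormone FGF15, which travels to the liver and lowers bile acid synthesis. SHP is known to repress other genes, among them Slc10a2.

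The values are FPKM, fragments per length of transcript and number of mapped fragments, as the authors deposited them per transcript event. A gene was given the sum over its transcription start events, or over its end events where that was higher. Samples were compared with limma on log2(FPKM + 1), a scale on which the fold change of a low gene is understated, and a gene was called where its Benjamini-Hochberg adjusted p did not exceed 0.05. A two-sided exact permutation test was run on each member as well, and with 4 samples against 4 it cannot go below 0.0286. Of 10321 genes tested with limma, 44.8% were called, 15.5% as higher and 29.3% as lower in MG53-TG. The median log2 fold change over all genes tested was -0.17. The gene of the transgene, Trim72, was listed in the MG53-TG samples alone, at 16.4 to 36.5 FPKM, which matches the labels. MG53-TG samples 1 and 2 lay close to each other, as did samples 3 and 4 (median absolute log2 difference 0.160 and 0.165), whereas pairs across these 2 sets differed by 0.300 to 0.352. The WT samples differed from each other by 0.145 to 0.189. The log2 fold change of each member is therefore also given with either set alone against all WT samples.

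The sequences printed here show what the measurements below refer to. The first pair covers the exon junction at which the transcripts of Nr1h4 part ways, on the minus strand of chromosome 10 (GRCm38, GENCODE M21). Capitals mark the 12 bases, 4 codons, that only the longer exon holds (chr10:89483372-89483383), with 30 bases of coding sequence on either side.

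Nr1h4, shorter exon: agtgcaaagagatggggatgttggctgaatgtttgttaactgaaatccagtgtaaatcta

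Nr1h4, longer exon: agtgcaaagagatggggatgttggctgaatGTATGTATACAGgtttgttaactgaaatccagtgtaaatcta

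The next are from the 250 bases before the RefSeq start of 4 members (GRCm38.p6), each read 5′ to 3′ on the strand of its gene. The first exon listed in the files begins 182 bases upstream of the RefSeq start of Slc51b and 64 bases upstream of that of Slc10a2, and the bases inside it, apart from a match, are not shown. A window of 250 bases was found for 6 of the 7 members, all but Fgf15. Both strands were searched for the inverted repeat GGTCANTGACC bound by FXR with RXR, for the direct repeat GGTCANAGGTCA and for the HNF1 motif (GTTAAT, any base, ATTAAC), each with at most 1 letter different, and for CAAGGTCA, the site of NR5A2, without a difference. Both repeats and the NR5A2 site share the letters GGTCA and can overlap. Capitals mark the matches.

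Slc51b, chr9:65422949-65423023: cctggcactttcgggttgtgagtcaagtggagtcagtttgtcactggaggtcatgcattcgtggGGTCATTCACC

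Fabp6, chr11:43601563-43601812: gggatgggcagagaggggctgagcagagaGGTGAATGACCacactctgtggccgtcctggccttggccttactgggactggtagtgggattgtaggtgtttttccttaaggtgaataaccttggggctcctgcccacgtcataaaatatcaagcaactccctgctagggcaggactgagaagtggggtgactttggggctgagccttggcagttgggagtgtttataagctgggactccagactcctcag

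Slc10a2, chr8:5105352-5105537: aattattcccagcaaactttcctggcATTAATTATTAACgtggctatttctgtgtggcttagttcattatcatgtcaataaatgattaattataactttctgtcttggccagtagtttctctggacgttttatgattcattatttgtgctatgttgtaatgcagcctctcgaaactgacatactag

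Nr1h4, downstream start, chr10:89506659-89506908: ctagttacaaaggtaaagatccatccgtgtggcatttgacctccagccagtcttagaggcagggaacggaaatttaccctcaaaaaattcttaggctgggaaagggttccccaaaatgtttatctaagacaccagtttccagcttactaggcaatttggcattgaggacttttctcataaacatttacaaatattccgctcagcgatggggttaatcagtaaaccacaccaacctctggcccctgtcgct

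Slc51b holds the FXR repeat with 1 letter different, GGTCATTCACC, from 186 to 176 bases before its RefSeq start. Of the 11 bases of this match, 7 lie inside the first exon listed in the files, whose edge is at 65422955. Fabp6 holds GGTGAATGACC from 221 to 211 bases before its start. On the other strand this match of Fabp6 reads GGTCATTCACC, letter for letter that of Slc51b. Of 32851 such windows in the genome, 0.624% hold this repeat with at most 1 letter different, and 0.0335% hold it exactly. Slc10a2 holds an HNF1 match with 1 letter different, ATTAATTATTAAC, from 224 to 212 bases before its start, as 0.189% of windows do. The direct repeat is in 0.953% of all windows and the NR5A2 site in 1.33%, and neither was found in a member. No match of any of the 4 motifs lay in the windows of Nr1h4, Slc51a (chr16:32487880-32488129) and Nr0b2 (chr4:133553126-133553375). A match is a string of letters and not a measured binding site.

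The members called went in both directions in MG53-TG organoids. Both subunits of the exporter and the receptor FXR rose, the importer Slc10a2 and the hormone Fgf15 fell, and Nr0b2 did not pass the test. Of the 6 members tested, 3 were called higher, beside 15.5% of all genes, and 2 lower, beside 29.3%. Slc10a2 and Fgf15 reached the filter, a mean of 0.5 FPKM over the 8 samples, only through their level in WT, as did Nr0b2 with a mean of 0.499 FPKM in MG53-TG, and Slc51a only through its level in MG53-TG. The direction in which these members could be called was thus fixed by the filter. The counts in either direction, and the difference in direction among members, follow in part from it and support nothing by themselves. Slc51b and Nr1h4, the 2 members that passed in both groups, were both called higher. The 5 members called were the 5 whose groups did not overlap, 3 higher, as were 15.6% of all genes tested, and 2 lower, as were 29.2%.

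**Figure D1:**
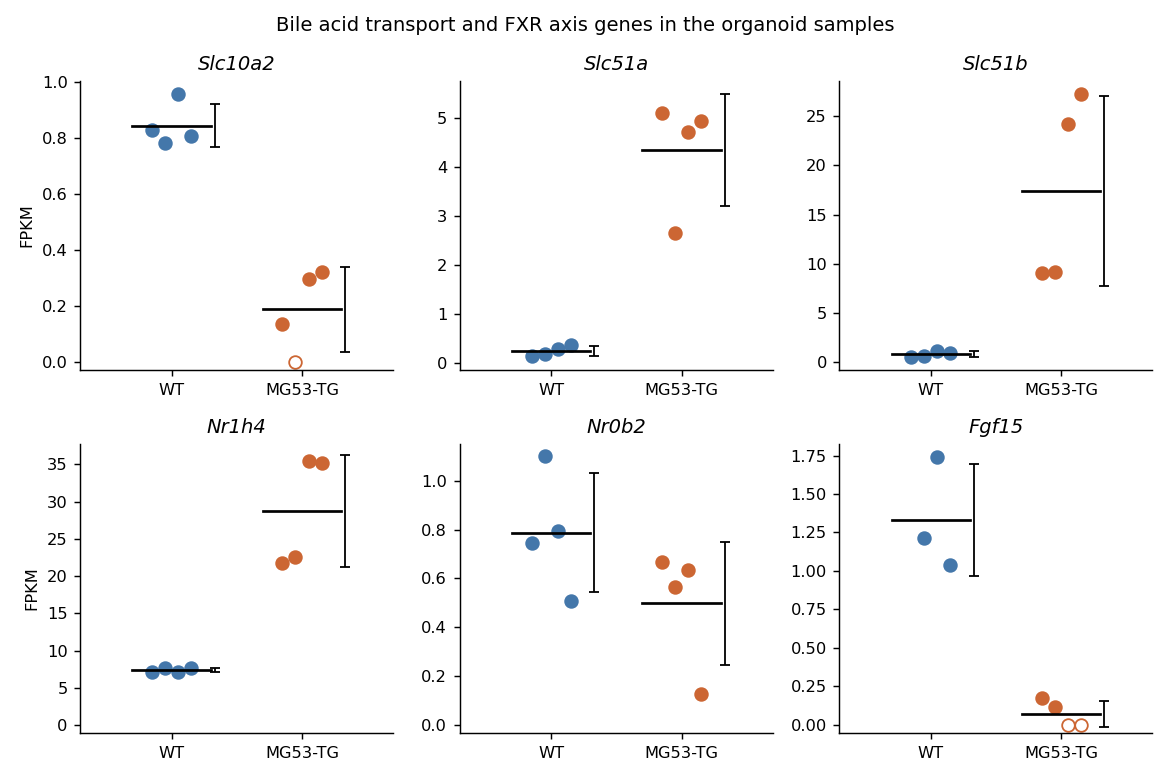
FPKM (vertical axes, 1 scale per gene) of the 6 members with a value in each WT (blue) and MG53-TG (orange) sample. Horizontal lines are group means, bars to their right are ± SD, and open circles are samples without an entry, taken as 0. WT sample 1 has no value for Fgf15. Slc51a, Slc51b and Nr1h4 are higher in every MG53-TG sample than in any WT sample, and Slc10a2 and Fgf15 lower.

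The uptake step was low in all organoids and lower with the transgene. Slc10a2 (chromosome 8, 5083219 to 5105351, minus strand) was at 0.831, 0.785, 0.956 and 0.809 FPKM in WT samples 1 to 4. With the transgene, samples 1, 3 and 4 gave 0.135, 0.297 and 0.322 FPKM, and sample 2 had no entry, which was taken as 0. The 4 WT values lie within a narrow range, and all MG53-TG values are below it. The means were 0.845 ± 0.0765 FPKM in WT and 0.188 ± 0.151 FPKM in MG53-TG (SD, n = 4 each), a level 4.48-fold lower. On the log2 scale it fell by 0.64 (standard error 0.13, limma adjusted p = 0.00446; exact permutation p = 0.0286). With MG53-TG samples 3 and 4 alone the log2 fold change was -0.49, and with samples 1 and 2 alone -0.79.

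The binding protein Fabp6 (chromosome 11, 43596049 to 43601540, minus strand) had no entry in any of the 8 samples, by its identifier or by coordinates, and is not analysed here.

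The export step showed the largest differences among the members on the log2(FPKM + 1) scale. Slc51a, the gene of OSTα (chromosome 16, 32474504 to 32487879, minus strand), was at 0.134, 0.180, 0.288 and 0.359 FPKM in WT. MG53-TG samples 1 to 4 gave 5.10, 2.65, 4.70 and 4.94 FPKM. Sample 2 is lower than the other 3, which lie together, and yet it is far above every WT value. The mean rose 18.1-fold, from 0.240 ± 0.102 to 4.35 ± 1.14 FPKM (SD, n = 4 each), with a log2 fold change of 2.08 ± 0.18 (SE, the standard error; limma adjusted p = 4.89e-05; exact permutation p = 0.0286). With a pseudocount of 0.1 in place of 1 the log2 fold change was 3.72.

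Slc51b, the gene of OSTβ (chromosome 9, 65412714 to 65422955, minus strand), was at 0.541, 0.594, 1.17 and 0.982 FPKM in WT. In MG53-TG samples 1 to 4 it was at 9.08, 9.13, 24.2 and 27.2 FPKM. Samples 3 and 4 were thus far above samples 1 and 2, and all 4 were above every WT sample. The mean was 21.2-fold higher, 17.4 ± 9.66 against 0.823 ± 0.305 FPKM (SD, n = 4 each), and the log2 fold change was 3.19 ± 0.36 (SE; limma adjusted p = 0.000212; exact permutation p = 0.0286). It was 3.89 with MG53-TG samples 3 and 4 alone and 2.49 with samples 1 and 2 alone, while Slc51a gave 2.23 and 1.93.

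Since OSTα and OSTβ work as a pair, their levels were set side by side in each sample, on the FPKM scale. The ratio of Slc51a to Slc51b was 0.248, 0.302, 0.245 and 0.365 in WT samples 1 to 4. In MG53-TG samples 1 to 4 it was 0.561, 0.291, 0.195 and 0.181. The ratios of the groups overlap, with the mean at 0.290 ± 0.0563 in WT and 0.307 ± 0.176 in MG53-TG (SD, n = 4 each), and the highest and lowest ratio are both in MG53-TG. The ratio of Slc51b to Slc10a2 divides a member that rose by one that fell, so its direction was fixed and it supports nothing by itself. It lay between 0.651 and 1.23 in the 4 WT samples. In MG53-TG samples 1, 3 and 4 it was 67.3, 81.3 and 84.6, and sample 2 gave none for want of a Slc10a2 entry. The size of these 3 ratios rests on Slc10a2 levels of only 0.135 to 0.322 FPKM.

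The events of Slc51a were also listed singly. All its transcripts began in the exon from 32487485 to 32487703. Its ends were listed at 2 places, one in the exon from 32474504 to 32475878 and one from 32476587 to 32477313. The first was at 0.00426 FPKM in WT sample 1, without an entry in WT sample 2, at 0.272 and 0.287 FPKM in WT samples 3 and 4, and between 2.50 and 4.58 FPKM in MG53-TG. The second was between 0.0155 and 0.180 FPKM in WT and between 0.124 and 0.924 FPKM in MG53-TG, where the ranges overlap (two-sided exact permutation p = 0.143). The share of the second end ran from 5.38% to 100% over the WT samples and from 2.64% to 18.1% over the MG53-TG samples, so at WT levels it is too scattered to compare. The exon of 74 bases from 32478716 to 32478789 was kept in nearly all transcripts, with a form lacking it listed only in MG53-TG sample 3, at 0.129 FPKM. On the opposite strand, exons of Pcyt1a overlap those of Slc51a over 567 bases, and exons of Rasl12 those of Slc51b over 91 bases. Whether the counting used strand is not given in the sources used here, so reads in these stretches cannot be told apart.

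The receptor was the most abundant member in both groups. Nr1h4, which encodes FXR (chromosome 10, 89454234 to 89533585, minus strand), was at 7.16, 7.67, 7.13 and 7.68 FPKM in WT. MG53-TG samples 1 to 4 reached 21.8, 22.6, 35.4 and 35.2 FPKM. The WT samples hardly differ, and the MG53-TG samples fall into the same sets, 1 with 2 and 3 with 4, as for Slc51b. The mean rose 3.88-fold, from 7.41 ± 0.306 to 28.8 ± 7.56 FPKM (SD, n = 4 each), with a log2 fold change of 1.79 ± 0.17 (SE; limma adjusted p = 9.33e-05; exact permutation p = 0.0286). Either set of MG53-TG samples alone gave the call, with 2.11 for samples 3 and 4 and 1.47 for samples 1 and 2.

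Nr1h4 has 2 listed starts, from which proteins with different amino ends are known to be made. The downstream start, in the exon from 89506508 to 89506649, was at 7.03, 7.11, 6.96 and 7.39 FPKM in WT and at 21.7, 22.6, 35.2 and 34.9 FPKM in MG53-TG (two-sided exact permutation p = 0.0286). The upstream start, in the exon from 89533403 to 89533585, was at 0.131, 0.562, 0.173 and 0.291 FPKM in WT. In MG53-TG it gave 0.106, 0.190 and 0.271 FPKM in samples 1, 3 and 4, and sample 2 had no entry. The rise of the gene was thus a rise of its downstream start, while the values of the upstream start overlap between groups. With the absent entry at 0, the upstream start held 1.84%, 7.32%, 2.42% and 3.79% of the gene in WT and 0.484%, 0%, 0.537% and 0.770% in MG53-TG (two-sided exact permutation p = 0.0286). Since the downstream start rose, this share would fall with the upstream start unchanged as well, so it is no separate result.

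The 12 bases shown in capitals above are known to place extra amino acids just behind the DNA-binding domain of FXR. They distinguish the longer exon (89483372 to 89483524, 153 bases) from the shorter one (89483384 to 89483524, 141 bases). This comparison was chosen after the list of events had been seen. Transcripts with the longer exon were at 3.45, 2.64, 1.91 and 3.01 FPKM in WT and at 5.49, 5.72, 9.72 and 8.28 FPKM in MG53-TG. Those with the shorter exon were at 3.72, 5.03, 5.21 and 4.67 FPKM in WT and at 16.3, 16.9, 25.7 and 26.9 FPKM in MG53-TG. Both forms were higher in every MG53-TG sample than in any WT sample (two-sided exact permutation p = 0.0286 for each), the longer 2.65-fold and the shorter 4.61-fold. The share of the longer form was 48.1%, 34.4%, 26.9% and 39.2% in WT samples 1 to 4. In MG53-TG samples 1 to 4 it was 25.2%, 25.3%, 27.4% and 23.5%. The WT shares spread widely and the MG53-TG shares little, and WT sample 3 lies among the MG53-TG samples. The mean share was 37.1 ± 8.90% in WT and 25.4 ± 1.60% in MG53-TG (SD, n = 4 each), a difference that did not reach 0.05 (two-sided exact permutation p = 0.0571).

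**Figure D2:**
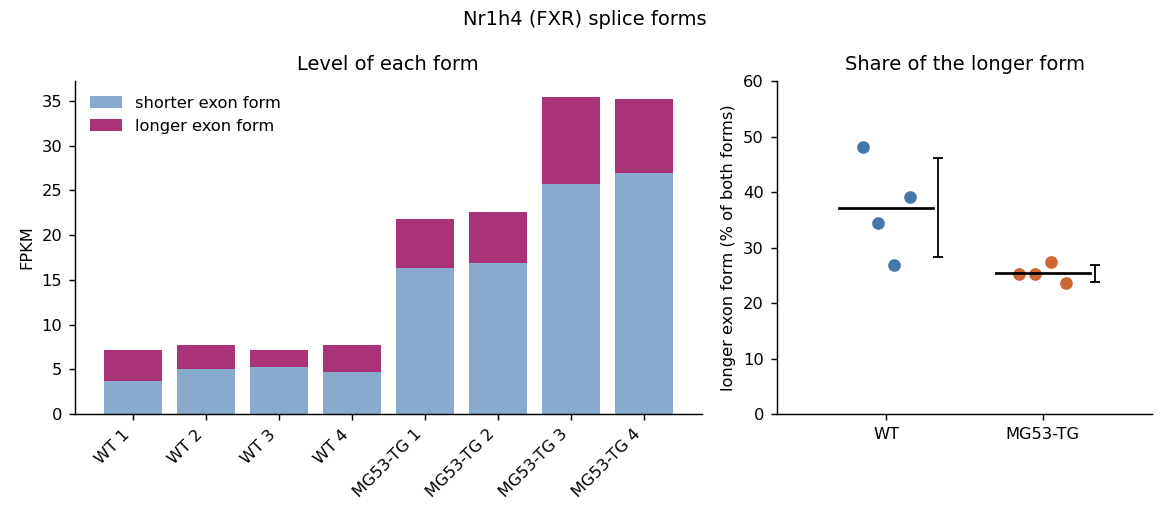
Left, FPKM (vertical axis) of Nr1h4 transcripts with the shorter (blue) and longer (purple) exon, stacked, in each of the 8 samples. Right, the longer form as a percent of both, with points for samples, lines for means and bars for ± SD. Both forms are higher in all MG53-TG samples, and the shares of the groups overlap at WT sample 3, 26.9%.

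Among the targets read out by FXR, the repressor did not follow the receptor. Nr0b2, which encodes SHP (chromosome 4, 133553376 to 133556536, plus strand), was at 0.745, 1.10, 0.794 and 0.508 FPKM in WT. MG53-TG samples 1 to 4 gave 0.668, 0.566, 0.636 and 0.127 FPKM. The groups overlap, and MG53-TG sample 4 is the lowest of the 8. The means were 0.788 ± 0.245 and 0.499 ± 0.252 FPKM (SD, n = 4 each), and the log2 fold change of -0.26 (standard error 0.17) was within the spread between samples (limma adjusted p = 0.24; exact permutation p = 0.171). With MG53-TG samples 3 and 4 alone it was -0.39, and with samples 1 and 2 alone -0.14. At under 1.2 FPKM in every sample, a change in either direction could be missed. Relative to the receptor, Nr0b2 was between 0.0661 and 0.144 FPKM per FPKM of Nr1h4 in WT and between 0.00360 and 0.0306 in MG53-TG. Since Nr1h4 rose, this ratio would come out lower with Nr0b2 unchanged as well, so it adds nothing to the test of Nr0b2.

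Fgf15, the hormone that signals to the liver (chromosome 7, 144896531 to 144900953, plus strand), went down. It was at 1.22, 1.74 and 1.04 FPKM in WT samples 2 to 4, and WT sample 1 had no entry and was left out of the fit as missing. MG53-TG samples 1 and 2 gave 0.173 and 0.114 FPKM, and samples 3 and 4 had no entry, which was taken as 0. All 4 MG53-TG values are below the 3 WT values. The mean was 18.5-fold lower, 0.0719 ± 0.0864 FPKM (SD, n = 4) against 1.33 ± 0.364 FPKM (SD, n = 3), and on the log2 scale it fell by 1.11 (standard error 0.15, limma adjusted p = 0.00099). The size of the fold rests on few values, being 9.26-fold with the listed values alone and 34.9-fold without MG53-TG sample 1. An exact permutation test over the 35 relabellings of 3 against 4 gave p = 0.0286, its smallest. MG53-TG samples 3 and 4 alone gave -1.21 and samples 1 and 2 alone -1.02. The call leans on the treatment of WT sample 1. With its absent entry also set to 0, the log2 fold change was -0.81 and the limma adjusted p 0.0477. Exons of the antisense genes Gm26793 and Gm39119 overlap Fgf15 over 761 and 26 bases.

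In WT the order of mean levels, in FPKM, which is per length, was Nr1h4 (7.41), Fgf15 (1.33), Slc10a2 (0.845), Slc51b (0.823), Nr0b2 (0.788) and Slc51a (0.240). The samples of Slc10a2, Slc51b and Nr0b2 overlap, as do those of Fgf15 with Slc51b and Nr0b2, whereas Nr1h4 stands above and Slc51a below all others. In MG53-TG the order was Nr1h4 (28.8), Slc51b (17.4), Slc51a (4.35), Nr0b2 (0.499), Slc10a2 (0.188) and Fgf15 (0.0719). There the samples of Nr1h4 and Slc51b overlap, as do those of Nr0b2 with Slc10a2 and of Slc10a2 with Fgf15, while Slc51a lies apart from both neighbours. The exporter subunits thus changed from the lower to the upper part of the order.

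The absorptive cell itself was more strongly marked in MG53-TG. All 10 enterocyte markers, none of them at 0 in a WT sample, were called higher, with a summed level of 499 to 539 FPKM in WT and 3399 to 5706 FPKM in MG53-TG. Of the other lists, 5 of 5 Paneth and 3 of 5 stem cell markers were called lower. Of the goblet markers tested, 3 of 4 were lower, and all 4 enteroendocrine markers tested were higher. In bulk samples a change in the number of cells of a type and a change in RNA per cell cannot be told apart. Of 7 epithelial markers, 1 was called higher, Vil1 of the brush border, which is also among the 10 enterocyte markers, and 4 lower. The lower ones were Cdh1 (log2 fold change -0.80, limma adjusted p = 5.74e-05), Krt18 (-1.11, 0.00278), Cdx2 (-0.58, 0.00294) and Krt8 (-0.37, 0.00685), while Epcam (0.02, 0.908) and Krt19 (1.03, 0.125) were not called. Per 1000 FPKM of the 10 enterocyte markers summed, a measure chosen after the values were seen, Slc51a was at 0.269 to 0.710 in WT and 0.749 to 1.499 in MG53-TG, and Slc51b at 1.08 to 2.20 and 2.57 to 4.77. On that scale Nr1h4 was lower in MG53-TG, at 6.17 to 6.75 beside 13.4 to 15.2 in WT. Slc10a2 was at 1.45 to 1.79 in WT and 0 to 0.0566 in MG53-TG, Fgf15 at 2.06 to 3.26 and 0 to 0.0509, and Nr0b2 at 1.006 to 2.05 and 0.0222 to 0.197. The outcome for the exporter and the receptor depends on the marker chosen. Set against each of the 10 markers alone, Slc51a and Slc51b were each higher in MG53-TG without overlap for 5 and overlapped for 5. Nr1h4 was higher for 1, overlapped for 1 and was lower for 8. Vil1, the marker that rose least, by 2.17-fold beside 4.00- to 21.3-fold for the rest, is the one against which Nr1h4 was higher. Slc10a2, Fgf15 and Nr0b2 were lower against all 10. Since every marker rose, a gene without a change would come out lower as well, so this adds nothing to their own tests. The part of the enterocyte markers in the results on the members was not tested.

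**Figure D3:**
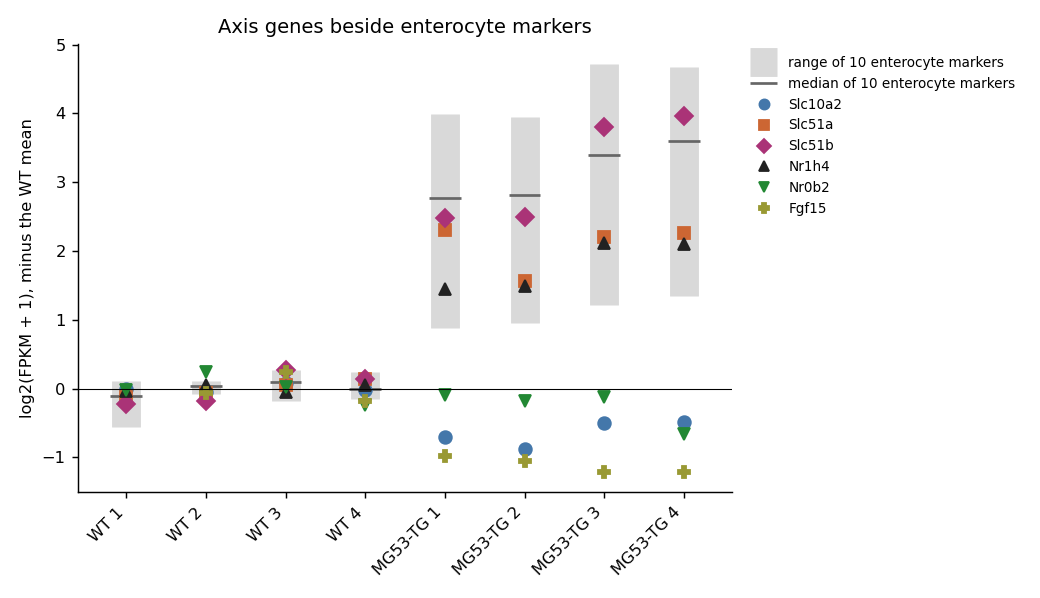
Log2(FPKM + 1) minus the WT mean of the same gene (vertical axis) in each sample (horizontal axis). Symbols are members, grey columns span the 10 enterocyte markers and the short line in each is their median. Slc51a, Slc51b and Nr1h4 lie inside the span of the enterocyte markers in every MG53-TG sample, and Slc10a2, Fgf15 and Nr0b2 below it.

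The axis is known from the ileum, and the name was compared with markers of position. Gata4, a factor of the proximal small intestine that the ileum is known to lack, was at 30.8 to 39.4 FPKM in WT and 37.1 to 41.4 FPKM in MG53-TG, a difference that did not pass (limma adjusted p = 0.234). Of the 7 proximal markers tested, 4 were called higher and 1 lower, and their summed levels overlapped, at 206 to 256 FPKM in WT and 185 to 280 FPKM in MG53-TG. The distal markers summed to 45.7 to 81.8 FPKM in WT and 30.0 to 61.1 FPKM in MG53-TG, and 1 of 4 tested was called higher. Of the colon markers, Car1 and Hoxb13 had no value, and the rest summed to at most 2.03 FPKM. With Gata4 present in every sample, the markers do not place these cultures in the ileum, and the 7 genes are described only as the bile acid transport and FXR axis. The absent entry of Fabp6 is not read as a low level. Of the hepatocyte list, from the organ where the same receptor also works, Cyp7a1 and Slc10a1 had no value, and the sum of the rest was 27.5 to 39.8 FPKM over all 8 samples, most of it Ttr at 27.5 to 39.8 FPKM. Alb of that list was at 0.521 to 0.883 FPKM in WT and had no entry in MG53-TG (limma adjusted p = 0.000123 in the fit without the filter). Immune markers summed to 3.77 to 9.24 FPKM in WT and 0.609 to 1.47 FPKM in MG53-TG. Most of this was Cd68, of macrophages, at 3.75 to 9.08 and 0.469 to 1.28 FPKM, the only one of the list tested and called lower (log2 fold change -1.84, limma adjusted p = 0.000543). Lyz2, under the filter, was higher in MG53-TG without overlap, at 0.119 to 0.296 FPKM beside 0 to 0.0616 FPKM in WT, while Ptprc and Cd3e were each listed in 1 sample, at under 0.1 FPKM. Tuft cell markers summed to 0.451 to 1.73 and 0 to 0.687 FPKM. Of 3 mesenchymal markers tested, 2 were called higher, both of which passed the filter only through MG53-TG and so could be called in that direction alone. Col1a2 had no entry in any WT sample, which was taken as 0, and was at 0.739 to 2.07 FPKM in MG53-TG samples 2 to 4 (log2 fold change 1.12, limma adjusted p = 0.00369). Col3a1 likewise had no entry in WT and was at 0.904 to 1.62 FPKM in those 3 samples (1.16, 0.000646), and for both genes MG53-TG sample 1 was missing. Col1a1, under the filter, also had no entry in WT and was at 0.465 to 0.659 FPKM in the same 3 samples (limma adjusted p = 0.000236 in the fit without the filter), and Vim was not called (-0.41, 0.126). The summed level was 1.80 to 3.24 FPKM in WT and 1.31 to 5.10 FPKM in MG53-TG, the lowest being Vim alone in MG53-TG sample 1. The part of these and the other cell type markers in the results on the members was not tested.

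The wider pathway was read from 7 lists of 59 genes. Of these, 48 had a value and 42 were tested, with 22 called higher (15.5% of all genes) and 10 lower (29.3%). Of the 42, Maf and Slco2a1 passed the filter only through MG53-TG and Fgfr4 only through WT, so that their direction was fixed, and of the other 39 genes 20 were called higher and 9 lower. The median log2 fold change of the 42 was 0.67, beside -0.17 for all genes tested.

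**Figure D4:**
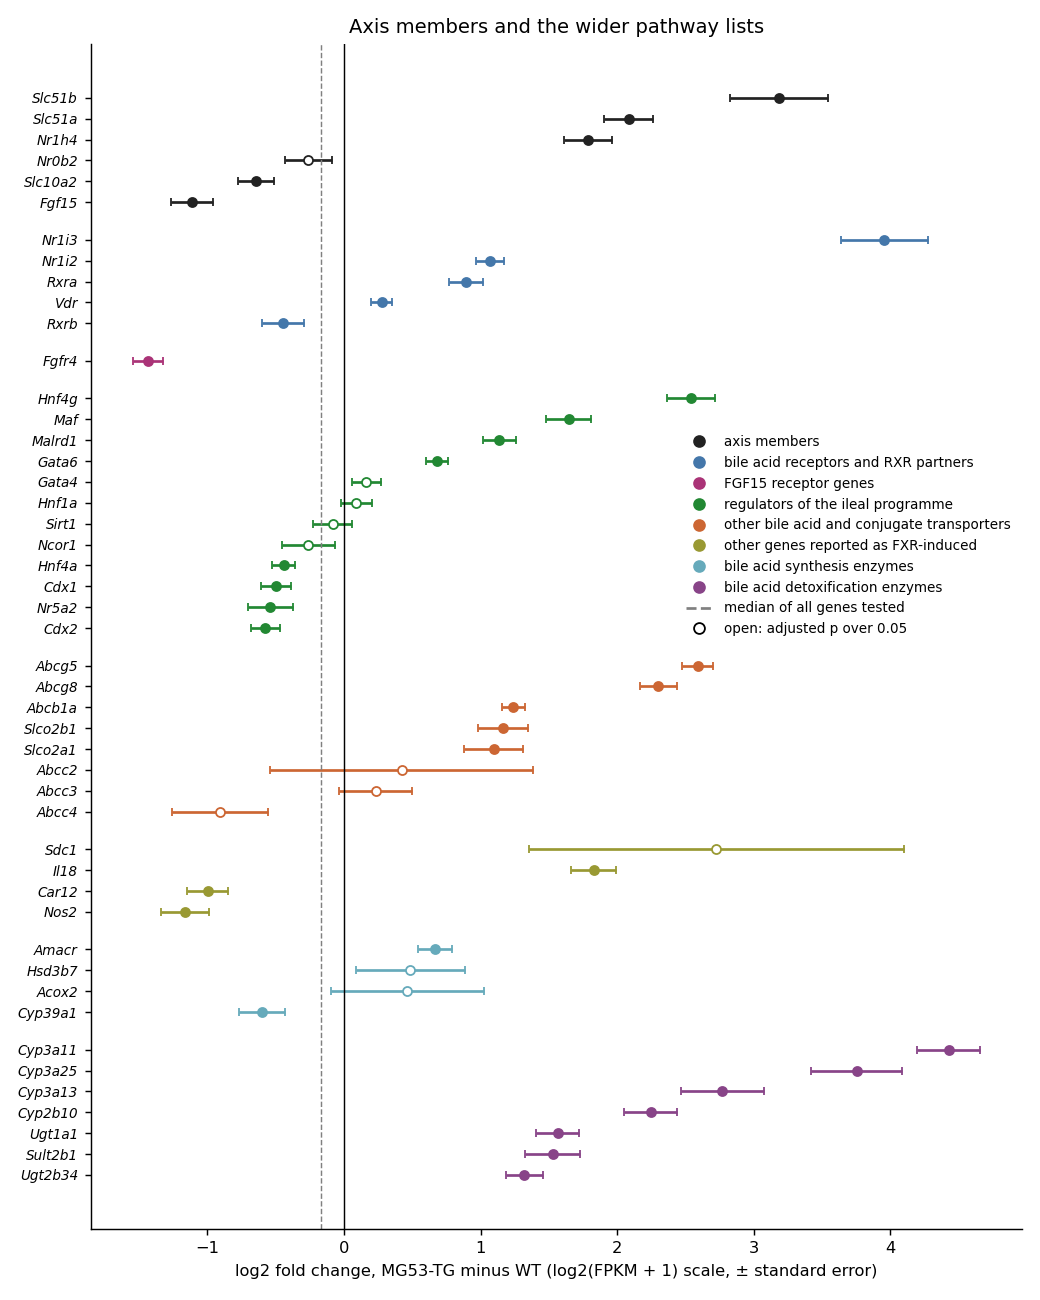
Log2 fold change of MG53-TG against WT (horizontal axis, log2(FPKM + 1) scale) with its standard error, for the 6 members tested and the genes tested of the wider lists that are reported here, coloured by list. Filled points have a limma adjusted p of at most 0.05, and the dashed line is the median of all genes tested, -0.17. All 7 detoxification enzymes lie to the right of 0, and the members lie on both sides.

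The nuclear receptors that sense bile acids or pair with those that do were mostly higher. Of 5 tested, 4 were called higher and 1 lower, beside 15.5% and 29.3% of all genes. Rxrg and the membrane receptor Gpbar1 had no value. Nr1i3, which encodes CAR, a sensor of foreign compounds, was at 2.70, 3.68, 3.92 and 1.72 FPKM in WT and 40.4, 40.4, 80.1 and 95.4 FPKM in MG53-TG, 21.3-fold higher (log2 fold change 3.96, limma adjusted p = 3.47e-05). Like Slc51b, it was highest in MG53-TG samples 3 and 4. Nr1i2, which encodes PXR, rose from 9.43 to 10.5 FPKM in WT to between 19.7 and 25.0 FPKM in MG53-TG (log2 fold change 1.07, limma adjusted p = 9.46e-05). Rxra, the partner of FXR, went from 9.68 to 12.0 FPKM in WT to between 18.4 and 25.6 FPKM in MG53-TG (log2 fold change 0.89, limma adjusted p = 0.000721). Receptor and partner thus rose together, FXR by more. Rxrb was lower with a log2 fold change of -0.45 at a limma adjusted p of 0.0444, and this call was lost in 13 of 22 alternatives.

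The receptor of FGF15 is a pair, the kinase FGFR4 and the co-receptor β-Klotho (Klb), known chiefly from liver. Fgfr4 was at 1.59, 1.64, 1.69 and 2.05 FPKM in WT, and of the MG53-TG samples only sample 1 had an entry, at 0.0539 FPKM. It fell by 1.43 on the log2 scale (standard error 0.11, limma adjusted p = 2.83e-05). Hormone and kinase receptor were therefore both near 0 in MG53-TG. Klb was under the filter, at 0.278 FPKM in WT sample 1 alone and at 0 to 0.734 FPKM in MG53-TG (limma adjusted p = 0.307 in the fit without the filter).

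Of 13 regulators of the programme, 4 were called higher, 5 lower and 4 were not called, beside 15.5% higher and 29.3% lower among all genes, so the share called lower is near that of all genes. Maf passed the filter only through MG53-TG, and of the other 12 regulators 3 were called higher and 5 lower. Hnf4g, a factor of enterocyte maturation, was at 14.6 to 16.3 FPKM in WT and 78.0 to 140 FPKM in MG53-TG (log2 fold change 2.54, limma adjusted p = 1.58e-05). Maf, a factor of villus enterocytes, was at 0.162 FPKM in WT sample 3 alone and at 1.74 to 3.33 FPKM in MG53-TG (log2 fold change 1.64, limma adjusted p = 0.000109). Malrd1, also called Diet1, which affects the output of FGF15, rose while Fgf15 fell, from 4.04 to 5.33 FPKM in WT to 10.3 to 13.0 FPKM in MG53-TG (log2 fold change 1.14, limma adjusted p = 0.000171). These 3 led the genes called higher. On the other side were the caudal factor Cdx2 (log2 fold change -0.58, limma adjusted p = 0.00294) and Nr5a2, or LRH-1, a receptor that SHP represses (-0.54, 0.0276). The call on Nr5a2 was lost in 11 of 21 alternatives and its groups overlap.

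Other carriers of bile acids, their conjugates and sterols were called higher in 5 of 8 tested, beside 15.5% of all genes. Slco2a1 among the 5 passed the filter only through MG53-TG, and of the 7 that passed in both groups 4 were called higher. Of the 8 tested, 3 were not called, and Abcb11, Slc10a1 and Slco1a4 had no value. The sterol exporter pair Abcg5 and Abcg8 rose with similar sizes, Abcg5 from between 12.1 and 16.4 to between 88.1 and 93.1 FPKM (log2 fold change 2.59, limma adjusted p = 1.45e-06) and Abcg8 from between 9.42 and 13.8 to between 51.8 and 67.4 FPKM (2.30, 6.74e-06). Abcb1a, the drug exporter P-glycoprotein, rose from between 33.4 and 40.1 to between 86.6 and 91.2 FPKM (1.24, 1.58e-05). Unlike Slc51b and Nr1h4, these genes showed little spread among the 4 MG53-TG samples. Abcc2 was not called, with 44.4 to 108 FPKM in 3 MG53-TG samples and 2.01 FPKM in sample 2.

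Of 4 other genes reported as FXR-induced and tested, 1 was called higher and 2 lower, beside 15.5% and 29.3% of all genes. With 4 genes these counts are not read as a result about the genes under FXR. Il18, an epithelial cytokine, went from 1.09 to 1.95 FPKM in WT to between 6.27 and 9.87 FPKM in MG53-TG (log2 fold change 1.83, limma adjusted p = 5.45e-05). Nos2, the inducible nitric oxide synthase, fell by 1.16 on the log2 scale (limma adjusted p = 0.00144), with MG53-TG sample 2 missing, and Car12, a carbonic anhydrase, fell by 1.00 (limma adjusted p = 0.0016), with sample 4 missing. Of the FXR targets among the members, Fgf15 passed the filter only through WT and Slc51a only through MG53-TG, so their directions add nothing to these counts. Sdc1, the fourth, was at 0.350 and 1.48 FPKM in WT samples 1 and 4 and at 79.4 to 104 FPKM in the other 6, and was not called.

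Enzymes of bile acid synthesis were thinly represented. The liver enzymes Cyp7a1, Cyp8b1 and Cyp7b1 had no value, 4 others were under the filter, and of 4 tested Amacr was called higher (log2 fold change 0.67, limma adjusted p = 0.00302) and Cyp39a1 lower (-0.60, 0.0187). The call on Cyp39a1 was lost in 3 of 22 alternatives, with MG53-TG samples 1 and 2 alone, without WT sample 3 and without MG53-TG sample 3, where the limma adjusted p was 0.110, 0.0520 and 0.05003. The enzymes that detoxify bile acids and drugs, known targets of PXR and CAR, were all higher, 7 of 7 tested, beside 15.5% of all genes. Cyp3a11 was at 14.4 to 18.8 FPKM in WT and 261 to 507 FPKM in MG53-TG (log2 fold change 4.43, limma adjusted p = 3.57e-06), with Cyp3a25 (3.75, 5.53e-05) and Cyp3a13 (2.77, 0.000183) next. These enzymes belong to families of like sequence, so reads may be split between copies, and the value of Ugt1a1 comes from end events that its locus shares.

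Genes with the most similar profile to each member were found by the root mean square difference in log2(FPKM + 1), centred on the WT mean, among 9998 genes, members left out, over the 8 samples (10012 genes over 7 samples for Fgf15). For Nr1h4 these were Gstm1 (0.0783), Notum (0.0914) and Nol3 (0.105). For Slc51a they were Tgfbi (0.176), Tkfc (0.179) and Mep1b (0.217), and for Slc51b Iyd (0.158), Apoa2 (0.163) and Guca2b (0.168). The exporter genes had few near neighbours, with 2 genes within 0.2 of Slc51a and 6 within 0.2 of Slc51b, against 46 for Nr1h4. Slc10a2 was nearest to Stard4 (0.0395), Sh2d4a (0.0661) and Focad (0.0694), Fgf15 to Alkbh5 (0.0896), Grb10 (0.0928) and Hmox1 (0.120), and Nr0b2 to Kdm8 (0.0688), Eri3 (0.0976) and Map3k3 (0.105). The last 3 members have many near neighbours, 266, 100 and 517 genes within 0.2, and the cause of this was not tested. On this scale the fold of a low gene is understated, so a near gene need not share the fold in FPKM. Mean levels in WT and MG53-TG were 81.6 and 51.5 FPKM for Stard4, beside 0.845 and 0.188 FPKM for Slc10a2. They were 39.1 and 18.4 FPKM for Alkbh5, beside 1.33 and 0.0719 FPKM for Fgf15. For Kdm8 they were 1.45 and 1.06 FPKM, beside 0.788 and 0.499 FPKM for Nr0b2.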

How the data were processed

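RNA sequencing of 8 organoid samples was used. The authors trimmed reads with Cutadapt (1.9.1), mapped them with HISAT2 (2.0.1) to mm10 per the submitters' processing notes and deposited FPKM per transcript event. HTSeq (0.6.1) and DESeq2 are also named there, while the tool behind the event tables is not given in the sources used here. The lowest FPKM is 1e-06, so reads cannot be recovered and the depth is unknown. FPKM summed over start events was 269837 to 273797 in WT and 269094 to 284330 in MG53-TG.

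Start and end rows were kept where their coordinate fell in an exon of the named gene (GENCODE M21), 92.3% of 294831. An absent row was missing where the median of the remaining samples in the group reached 0.5 FPKM, and 0 elsewhere. Groups were fitted with limma 3.58.1 (trend) in R 4.3.3 on log2(FPKM + 1), where the mean over samples reached 0.5 FPKM. On simulated data with 200 of 10003 genes changed, 73% of changes of 1 log2 unit and 94% of 2 units were recovered. The changed genes were drawn from those with a mean log2(FPKM + 1) above 1. The rates thus do not cover lower genes, among them Slc10a2, Fgf15 and Nr0b2. Python 3.11.15 with scipy 1.17.1 served for the rest. Alternatives covered the pseudocount, filters, scaling, a replicate block, event and row rules and left-out samples. Named were all members, up to 3 called genes per list and direction, 8 set genes (Rxra, Gpbar1, Fgfr4, Klb, Vil1, Gata4, Epcam, Trim72) and the 3 nearest profiles, and others were chosen after their values were seen. The values of 1 gene that this rule names are not reported here. Members and lists were chosen with earlier results of these data known.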

Additional observations from a re-analysis of the deposited data

Results flagged for a closer look

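Among 73 groups of 4 samples looked at, 4 held a value whose gap to the others was too large for its group. In 3 of them the other samples had no entry and were taken as 0, so the outcome was fixed by that rule. Of the 70 groups left 1 held such a value, where chance would give 3.5. This was Slc51a, for which MG53-TG sample 2 gave 2.65 FPKM, with the other 3 between 4.70 and 5.10 FPKM. The 3 fixed by the rule were Fgfr4, at 0.0539 FPKM in MG53-TG sample 1, Maf, at 0.162 FPKM in WT sample 3, and Klb, at 0.278 FPKM in WT sample 1, each without an entry in the rest of its group.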

How the results depend on the processing

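Each of the 6 members kept its direction and its side of the threshold in every alternative that gave it a value, 22 for Slc51a, Slc51b and Nr1h4 and 21 for Slc10a2, Fgf15 and Nr0b2, which lie under a filter at 2 FPKM. Slc10a2 fell under the filter at 0.5 FPKM in 5 of these, median-of-ratios scaling and each omission of a WT sample, and Fgf15 in 1, without WT sample 3. There the values come from a fit without the filter, and by limma the adjusted p was 0.00477 and 0.00572 to 0.0064 for Slc10a2 and 0.00115 for Fgf15. Leaving out 1 sample at a time, the log2 fold change was 2.01 to 2.26 for Slc51a, 2.92 to 3.42 for Slc51b, 1.68 to 1.904 for Nr1h4, -0.70 to -0.56 for Slc10a2, -1.20 to -0.99 for Fgf15 and -0.34 to -0.13 for Nr0b2, and 3667 to 4884 genes were called, beside 4619 with all samples. A pseudocount of 0.1 gave -1.91 for Slc10a2, -3.17 for Fgf15, -0.67 for Nr0b2 and 4.12 for Slc51b. Median-of-ratios scaling moved the median of all genes by 0.163 and quantile normalization by 0.120, and the share of calls that were higher from 34.5% to 49.9% and 44.7%. Whether the replicate numbers pair the samples is not settled by the sources used here. The study's text names a paired t test for marker genes of crypt organoids. Correlations of same-numbered samples, as deviations from their group means, were 0.0934, -0.003, 0.0913 and -0.0489. Those of all WT and MG53-TG pairs ran from -0.119 to 0.114, and with 4 samples per group they cannot decide the question. With the number as a block 4208 genes were called, and of the receptors and RXR partners 3 in place of 5, as with MG53-TG samples 1 and 2 alone. With those samples alone, 1 synthesis enzyme was called in place of 2, and with samples 3 and 4 alone, 8 other transporters in place of 5. With the filter at 2 FPKM, 0 FGF15 receptor genes were called in place of 1, and 1 other FXR-induced gene in place of 3, since fewer genes were tested. The cause of the other shifts was not tested. The fits on either set of MG53-TG samples, and the one with absent rows always missing, were added after seeing the data. Values near or under 1 FPKM, as for Slc10a2, Nr0b2 and Fgf15, and for Slc51a and Slc51b in WT, rest on few reads of unknown number. The fold rises of Slc51a and Slc51b are set against such WT values.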
